A study of Mus musculus with 2 samples.

Results

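The T cell receptor carries no signalling domain of its own and works through a fixed set of partner proteins. The genes described here encode those partners and the first proteins they act on: Cd3e, Cd3d, Cd3g and Cd247 (the invariant chains of the receptor complex), Cd4, Cd8a and Cd8b1 (the coreceptors), and Lck, Zap70 and Lat (the proximal kinases and the adaptor). These 10 genes were listed by name out of the 21938 protein-coding genes of the GENCODE M21 annotation. No measured value enters the rule, although the list was drawn up with earlier results of these data known. For each gene, the deposited peaks within 500 bp of any transcription start site, inside the gene and within 50 kb of either end were collected, with the footprints inside them. Overlapping peaks of the libraries were merged into sites, and these windows held 145 of the 146575 sites of the genome.

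Chromatin accessibility had been measured by DNase-seq, which sequences the ends that the enzyme DNase I leaves where it cuts accessible DNA. A footprint is a short stretch inside an accessible site that was cut less than its surroundings, as happens under a bound protein. The tissue was whole spleen of male B6CASTF1/J mice at 10 days of age, a first-generation cross of C57BL/6 and CAST/EiJ parents, with no treatment named. The data were 2 libraries of 1 group, numbered in their labels as biological replicates 1 and 2. The labels also number the male mice separately but give both the same donor identifier, so separate animals are read from those numbers alone. No contrast between conditions exists, so no test was made, and replicates show only how far these libraries differ. The spleen of a mouse of this age holds red cell precursors, B cells, myeloid cells and T cells together, and fewer T cells and less accessibility per T cell cannot be told apart in such a mixture.

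As background, CD3 epsilon, delta and gamma and the zeta chain encoded by Cd247 carry the immunoreceptor tyrosine motifs of the complex. The kinase LCK, held at the coreceptors CD4 and CD8, phosphorylates these motifs, ZAP70 binds to them, and ZAP70 then phosphorylates the adaptor LAT, on which further signalling proteins assemble. Lck is known for having a distal and a proximal promoter, and the genes Cd3e, Cd3d and Cd3g lie side by side in the genome, as do Cd8a and Cd8b1.

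The sequences below are the ones on which the results turn. They show the strongest site of any of the 10 genes, 3 promoters of differing strength, the strongest site of a gene whose own coding starts had no peak, and the strongest site near Cd4 that lay away from other promoters. All are mm10, written 5′ to 3′ in the direction of the gene, and capitals mark bases that lay in footprints of both libraries. The letters are those of the C57BL/6J reference and the CAST/EiJ alleles were not analysed here.
Lck internal site, chr4:129556541-129556720, minus strand: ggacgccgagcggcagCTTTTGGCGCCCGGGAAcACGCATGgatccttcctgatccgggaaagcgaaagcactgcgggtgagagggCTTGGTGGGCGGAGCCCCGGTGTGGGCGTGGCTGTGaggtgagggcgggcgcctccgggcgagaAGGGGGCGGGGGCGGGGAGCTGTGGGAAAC
Lck proximal promoter, chr4:129558373-129558622, minus strand: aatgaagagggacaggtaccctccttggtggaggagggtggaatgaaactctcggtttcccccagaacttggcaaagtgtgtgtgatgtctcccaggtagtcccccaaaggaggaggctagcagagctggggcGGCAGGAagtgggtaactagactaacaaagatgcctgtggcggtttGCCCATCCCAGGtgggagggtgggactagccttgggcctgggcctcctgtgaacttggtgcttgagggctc
Lat promoter, chr7:126369569-126369818, minus strand: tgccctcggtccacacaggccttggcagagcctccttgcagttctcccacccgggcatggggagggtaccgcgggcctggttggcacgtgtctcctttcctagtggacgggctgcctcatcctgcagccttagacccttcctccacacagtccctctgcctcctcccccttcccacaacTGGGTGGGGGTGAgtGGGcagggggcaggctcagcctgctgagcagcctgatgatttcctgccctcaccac
Cd3e promoter, chr9:45009612-45009861, minus strand: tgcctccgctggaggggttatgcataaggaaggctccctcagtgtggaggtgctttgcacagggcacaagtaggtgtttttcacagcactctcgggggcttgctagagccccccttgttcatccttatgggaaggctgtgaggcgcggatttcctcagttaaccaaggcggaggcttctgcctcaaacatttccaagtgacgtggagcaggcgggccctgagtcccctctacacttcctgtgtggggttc
Cd247 intronic site, chr1:165853841-165854020, plus strand: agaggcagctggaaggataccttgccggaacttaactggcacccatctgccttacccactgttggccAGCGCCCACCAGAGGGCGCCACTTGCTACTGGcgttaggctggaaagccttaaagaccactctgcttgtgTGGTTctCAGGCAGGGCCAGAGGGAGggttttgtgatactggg
Cd4 upstream site, chr6:124903661-124903860, minus strand: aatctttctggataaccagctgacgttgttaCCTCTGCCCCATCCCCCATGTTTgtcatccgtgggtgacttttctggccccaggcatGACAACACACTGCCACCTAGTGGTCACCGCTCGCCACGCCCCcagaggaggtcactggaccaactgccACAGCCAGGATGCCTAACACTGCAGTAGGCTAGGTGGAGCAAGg

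The promoters are the 250 bases before the start in the RefSeq promoter table (GRCm38.p6), in which 8 of the 10 genes had an entry, and the other sequences were read from the same assembly. Capitals cover 90 of 180 bases of the Lck internal site and 108 of 200 bases of the Cd4 upstream site. They cover 16 of 250 bases of the Lat promoter and 0 of the Cd3e promoter, where replicate 1 alone had footprints. These 250 bases reach beyond the called sites at Lat and Cd3e, while the Lck internal and Cd4 sequences are whole sites. The shares are therefore not of like stretches.

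In the longer peak lists most of these genes had a promoter peak, which was weak wherever it lay at a coding start. A peak lay within 500 bp of any start in 9 of the 10 genes in replicate 1, in 7 in replicate 2 and in 7 in both. The share of all protein-coding genes was 67.7% in replicate 1, 61.3% in replicate 2 and 60.7% in both, so the count in both was near the background. The count in both fell to 4 in the shorter deposited lists, and to 2 with peaks at or above the median signal of their library. In the longer lists only Cd4 had no promoter peak in either library, as was the case for 31.8% of all protein-coding genes. When only the starts of protein-coding transcripts were used, 8 genes had a peak in replicate 1 (66.5% of all genes), 6 in replicate 2 (60.1%) and 6 in both (59.5%), namely Cd3d, Cd3g, Cd8b1, Lck, Zap70 and Lat. Cd247 then joined Cd4 without a peak, and Cd3e and Cd8a had a peak in replicate 1 alone.

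The peak signal is the authors' own density scaled per library, so levels are compared within a library. At coding starts the signals of the genes with a peak ran from 0.379 in Cd8a to 1.79 in Lat in replicate 1, and from 0.352 in Zap70 to 0.737 in Lck in replicate 2. Each is the strongest of its gene in that library. In Cd3d, Lck and Zap70 the strongest lay at different starts in the libraries. The median over all protein-coding genes with such a peak was 6.94 in replicate 1 and 3.51 in replicate 2. The 8 genes with a coding peak in replicate 1 lay at percentiles 7.78 to 27.8 of those genes, and the 6 with one in replicate 2 at 7.78 to 18.6.

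**Figure D1:**
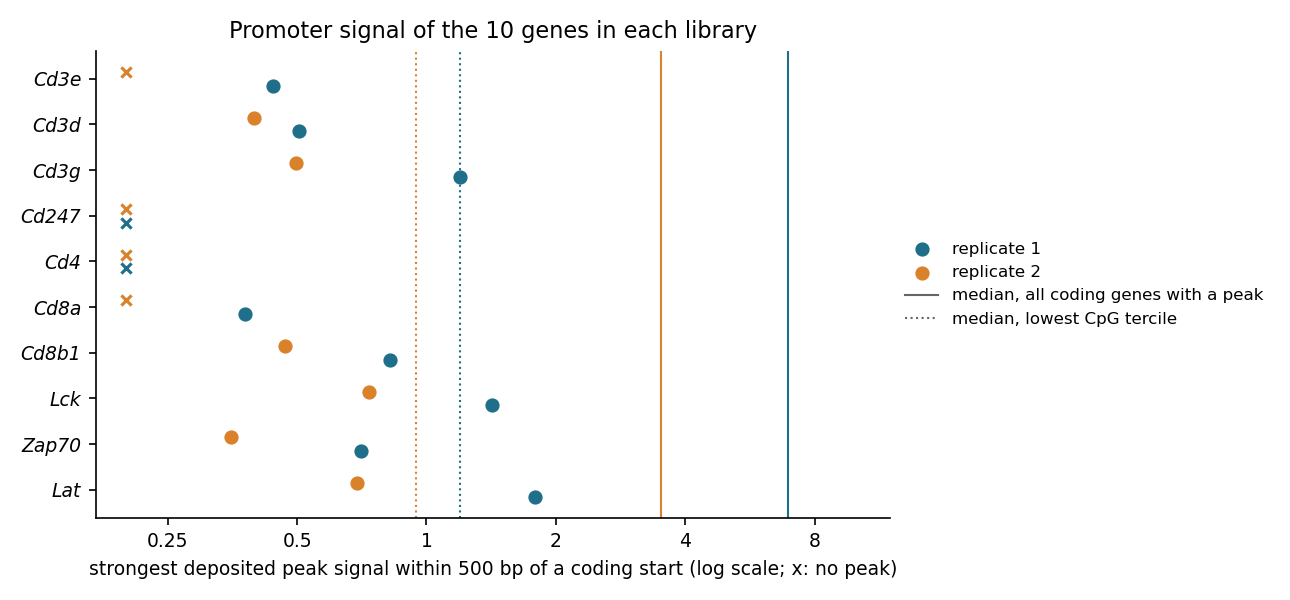
Strongest deposited peak signal within 500 bp of a protein-coding start of each gene (log axis). The points of a gene can stand for different starts, as in Cd3d, Lck and Zap70. Replicate 1 is in blue, replicate 2 is in orange, and crosses mark no peak. Solid lines are the medians of all protein-coding genes with a peak (6.94 and 3.51). Dotted lines are the medians of those in the lowest tercile of the ratio of observed to expected CpG (1.20 and 0.946). All points lie left of the solid line of their library, from 0.379 to 1.79 in replicate 1 and from 0.352 to 0.737 in replicate 2.

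The promoters of this group were poor in CpG, the dinucleotide that is dense at the starts of broadly used genes. The ratio of observed to expected CpG within 500 bp of the most upstream coding start was 0.161 in Cd3g, the lowest of the 10, and 0.357 in Cd8a, the highest. In 8 of the 10 genes it fell in the lowest tercile of protein-coding genes (up to 0.308), with Cd247 (0.343) and Cd8a in the middle tercile. In that lowest tercile 16.6% of genes had a coding promoter peak in both libraries, with median signals of 1.20 and 0.946 in replicates 1 and 2 among genes with a peak. The shares were 69.5% in the middle tercile and 92.5% in the highest. Of the 8 genes of the receptor in the lowest tercile, Cd3d, Cd3g, Cd8b1, Lck, Zap70 and Lat had such a peak in both libraries.

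The 3 CD3 genes lie side by side on chromosome 9, so that their windows overlap and share sites. Cd3g had the most accessible promoter of them. Its site at chr9:44980321-44980540 spans the start and reached 1.20 in replicate 1 and 0.498 in replicate 2, with 4 footprints in each. The gene's only other site, in the untranslated part of its far end (chr9:44969541-44969691), was called in replicate 2 only, at 0.435.

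Cd3d, which lies next to Cd3g in the opposite direction, was the gene with most sites called in replicate 2 only. The start of its longest transcript had a peak of 0.398 in replicate 2 (chr9:44981734-44981949, 1 footprint) and none in replicate 1, where no base within 500 bp was listed under a false discovery rate of 0.05. A second coding start further inside the gene had a site within 500 bp in both libraries (chr9:44985874-44986084, 0.506 and 0.348, 2 footprints each), 4193 bp from the first. This site lies just past that start and spans the start of a retained-intron transcript. It was the only coding promoter site of Cd3d in replicate 1. The strongest site of Cd3d lay wholly in the untranslated region near the gene's end, at chr9:44986541-44986820, with 2.06 in replicate 1 and 1.51 in replicate 2, and with 5 and 7 footprints. Both remaining sites, at chr9:44985641-44985747 (0.306) and chr9:44987011-44987156 (0.318), were called in replicate 2 only. The former also lay within 500 bp of the second coding start. The end of Cd3d was thus more accessible in each library than either of its starts.

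Cd3e had sites in replicate 1 only. The promoter site at chr9:45009561-45009760 had a signal of 0.439 with 2 footprints, and a narrower one at chr9:45009366-45009424, partly over a coding exon, had 0.300 with none. In replicate 2 no base within 500 bp of a Cd3e start and no base in the gene was listed under a false discovery rate of 0.05. Among all protein-coding genes without a promoter peak in replicate 2, 2.86% had such a base. Outside Cd3e, 973 bp from its upstream end, a site at chr9:45010601-45010780 was called in both at 0.840 and 0.356. Away from other promoters, a site 13273 bp from its upstream end, at chr9:45022901-45023080, was called in both at 1.75 and 1.96. It was higher in replicate 2, against a genome where replicate 1 was higher at most sites in both, and its log2 ratio of -0.16 stood at the 6.03 percentile of those ratios.

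The strongest site in reach of the CD3 genes belonged to a housekeeping neighbour. The promoter of Ube4a, which encodes a ubiquitin ligase and lies 3851 bp from Cd3g, had 33.8 and 12.4 at chr9:44965521-44965720. A site 1401 bp from its start had 5.61 and 3.10. Farther out stood the promoters of Mpzl3, on the Cd3e side, with 3.86 and 1.43, and of the ATP synthase gene Atp5l, on the Cd3g side, with 4.11 and 3.48. The CD3 promoters were thus weak next to a strong promoter in the same window.

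Cd247, which encodes the zeta chain, was accessible inside the gene and not called at its coding starts. None of its coding starts had a peak or a base listed under a false discovery rate of 0.05 in either library. Inside the gene, which is 88597 bp long, 9 sites were called, of which 7 were in both libraries and 2 in replicate 1 only (chr1:165816431-165816580 at 0.405 and chr1:165840899-165841040 at 0.544). The strongest was the intronic site printed above, 65250 bp from the most upstream coding start, and reached 6.02 in replicate 1 and 1.99 in replicate 2. It held 4 and 3 footprints, and its log2 ratio of replicate 1 over replicate 2 was 1.60, at the 95.3 percentile of all sites in both.

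The other sites of Cd247 in both libraries were weaker. A site 29990 bp from the start (chr1:165818541-165818800) had 1.54 and 0.867. A cluster of 3 sites between chr1:165844721 and 165845720, partly in an exon of the noncoding gene Gm37856, had 1.17, 1.30 and 0.829 in replicate 1 and 0.561, 0.783 and 0.444 in replicate 2. Each of the 3 lay within 500 bp of a start of Gm37856 or of another noncoding gene, Gm32999. A site at chr1:165848957-165849160 (0.791 and 0.502) lay within 500 bp of a start of the noncoding gene Gm37469. The last site, at chr1:165858482-165858660, had 0.596 and 0.486. It lay within 500 bp of the start of a retained-intron transcript of Cd247, and it alone gave Cd247 its promoter peak by the wider definition. In the flanks, the strongest site away from promoters lay in an intron of Creg1 (chr1:165771681-165771880, 5.65 and 4.52), and the Creg1 promoter had 20.5 and 8.34. Closer to Cd247, intergenic sites at chr1:165775661-165775820 and chr1:165780581-165780820 had 1.88 and 2.16, and 1.42 and 0.904.

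**Figure D2:**
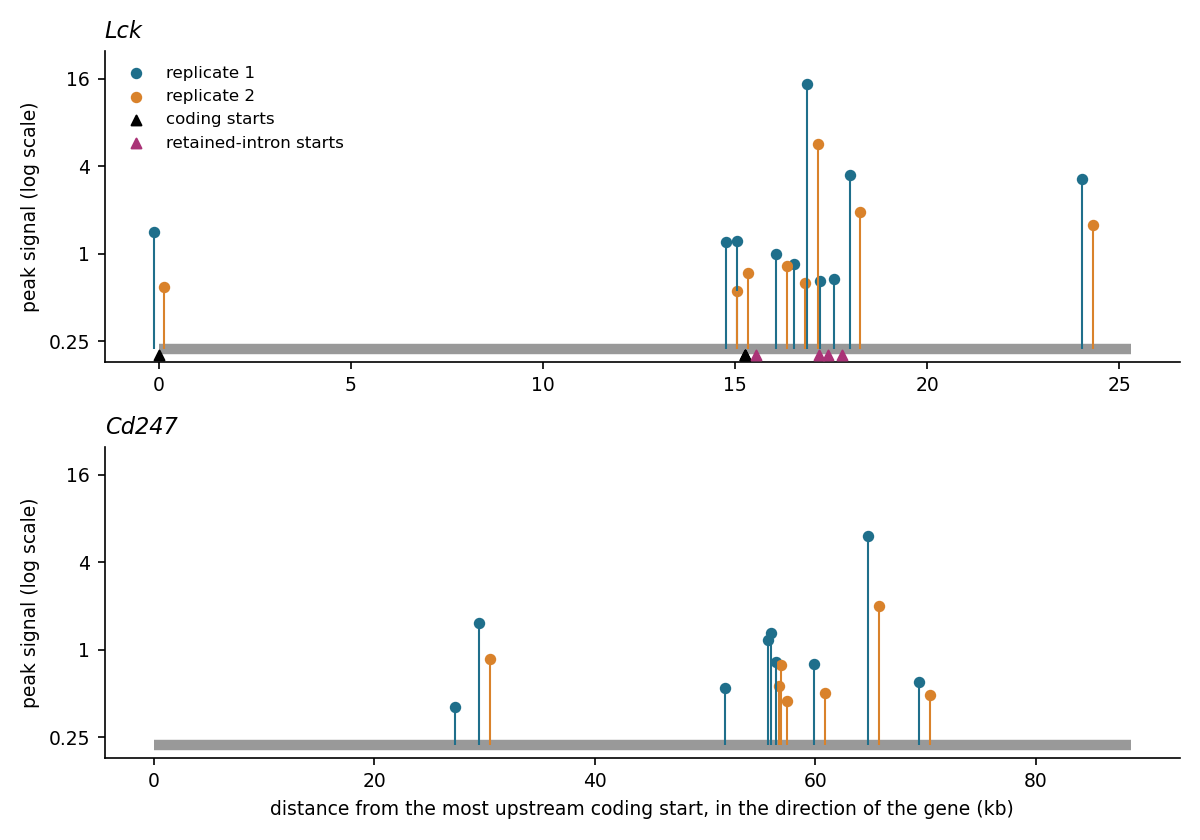
Peak signal (log axis) of every site at the promoter of or inside Lck and Cd247 against its distance from the most upstream coding start in kb, with replicate 1 in blue and replicate 2 in orange set slightly apart, the gene as a grey bar and triangles for starts of Lck. The highest Lck site (14.9 and 5.70) stands beside retained-intron starts and the highest Cd247 site (6.02 and 1.99) stands 65250 bp into the gene, with none at its start.

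Lck had the largest number of sites and the strongest one, but that site was at neither of its known promoters. The site printed first above had 14.9 in replicate 1 and 5.70 in replicate 2, at percentiles 97.0 and 95.4 of all peaks of its library, with 4 footprints in each. It lay 17010 bp downstream of the distal coding start, and 77 of its 180 bases were coding exon while the rest were intron. It counted as a promoter only because 2 retained-intron transcripts are annotated to start within 500 bp of it. With any start, Lck stood at percentiles 73.2 and 69.0 of the protein-coding genes with a promoter peak. Under the protein-coding starts alone, the signal of Lck dropped from 14.9 to 1.42 in replicate 1 and from 5.70 to 0.737 in replicate 2. The 1.42 was at the distal start and the 0.737 at the proximal ones.

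At the coding starts themselves Lck was far below its internal site, though among the highest of the 10 genes. The distal start had a site at chr4:129573512-129573755 with 1.42 and 0.595, with 5 footprints in replicate 1 and 1 in replicate 2. The proximal starts had sites at chr4:129558301-129558580 with 1.22 and 0.737, and at chr4:129558601-129558860 with 1.21 and 0.553. The distal start was the higher in replicate 1 and the proximal one in replicate 2, so the order of the promoters was not the same in the libraries.

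The remaining Lck sites clustered around the internal one or stood near the gene's end. Sites in both libraries were chr4:129555421-129555620 (3.47 and 1.94, 6 and 4 footprints), chr4:129549381-129549560 (3.28 and 1.59, 3 and 6 footprints), chr4:129557201-129557680 (0.994 and 0.821) and chr4:129556821-129557120 (0.844 and 0.632). The last had no footprint in either library. Called in replicate 1 only were chr4:129555721-129556133 (0.671) and chr4:129556161-129556440 (0.653), both partly coding exon and both without a footprint.

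The window of Lck, with the gene itself, was the densest of the 10. Per 100 kb it held 19.2 sites in both libraries, and the genome held 2.68. The genome's density is over the full length of its chromosomes, and windows around genes outside the group were not counted. Of the window's 24 sites in both, 8 lay at Lck and 16 in its flanks, while the flanks of Cd4 held 17. In the Lck flanks the promoter of the histone deacetylase gene Hdac1 had 21.8 and 8.13, and that of Iqcc 14.9 and 5.84. Away from promoters, the strongest flank sites were intergenic at chr4:129585301-129585480, 11659 bp beyond the gene (11.9 and 4.90), in an intron of Marcksl1 at chr4:129514441-129514640 (4.46 and 2.34), and in an intron of the noncoding gene Gm12979 at chr4:129500621-129501120 (4.66 and 1.57).

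Zap70 had 5 sites, none above 0.705 in either library. The first coding start had 0.420 and 0.352 (chr1:36761724-36761840, 2 footprints and 1), and the second, further inside, 0.574 and 0.322 (chr1:36766915-36767118, 4 footprints and 2). The other 3 were called in replicate 1 only, at chr1:36766481-36766680 (0.705), chr1:36771121-36771249 (0.518) and chr1:36782707-36782825 (0.484). Zap70 thus had more sites in that library alone than any other of the 10 genes. The site of 0.705 also lay within 500 bp of the second coding start. The strongest coding promoter site of Zap70 in replicate 1 was therefore called in that library only. Just past its end, 1922 bp away, an intergenic site had 4.48 and 2.88 (chr1:36784741-36784920), which is above every site in the gene in both libraries. The other strong flank sites away from promoters lay in introns of 4933424G06Rik, at chr1:36737421-36737600 (5.30 and 2.76) and chr1:36746561-36746740 (2.34 and 0.879).

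Lat had the highest coding promoter signal of the 10 genes in replicate 1 and the second highest in replicate 2. The site at chr7:126369421-126369740 had 1.79 and 0.691 with 3 and 6 footprints, and a neighbouring one over the first exon (chr7:126369219-126369353, 0.420) was called in replicate 1 only. The promoter of Spns1, a lipid transporter gene 7810 bp away, had 13.0 and 5.01, and that of Nfatc2ip had 10.2 and 9.18. A site at chr7:126399641-126399820 away from promoters had 12.7 and 5.25, followed by chr7:126323841-126324020 (4.80 and 2.34). The strongest promoters of this window thus stood well above that of Lat in each library.

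The coreceptor genes had the fewest sites of their own, 0 at Cd4 and 1 each at Cd8a and Cd8b1. Cd4 had no site at its promoter or inside the gene in either library, and no base within 500 bp of any of its starts was listed under a false discovery rate of 0.05. Inside the gene 13 bases were listed in replicate 1, the lowest at 0.042, and none in replicate 2. Its window nevertheless held 17 sites in both libraries, 12 of which lay at promoters of other protein-coding genes. By the mean of the libraries the strongest were at Mlf2 (24.9 and 10.7), between Cdca3 and Usp5 (21.4 and 7.96), and the upstream site printed above. A second site at Mlf2 (chr6:124930781-124930980, 15.6 and 7.91) was above the upstream site in replicate 1 and below it in replicate 2.

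That site had 14.5 in replicate 1 and 9.03 in replicate 2 and lay 15439 bp upstream of Cd4, between it and Lag3, which encodes an inhibitory receptor related to CD4. Sites in both away from promoters also stood in P3h3 (chr6:124847361-124847540, 10.2 and 5.21) and in Gpr162 (chr6:124859821-124860020, 6.81 and 3.20). Between Cd4 and the upstream site, 3 intergenic sites were called in replicate 1 only, at chr6:124898382-124898579 (0.619), chr6:124900501-124900677 (0.585) and chr6:124901201-124901380 (0.653). The region around Cd4 was accessible on both sides while the gene itself was not called.

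Cd8a and Cd8b1 stood in the emptiest windows of the group. Cd8a had 1 site, called in replicate 1 only, at chr6:71373462-71373551 over its first exon, with a signal of 0.379, no footprint and a lowest false discovery rate of 0.0239. Cd8b1 had 1 site in both libraries at chr6:71322681-71322880 with 0.821 and 0.469 and 3 footprints in each. The site spans the Cd8b1 start, with its midpoint 7 bp away, and its edge also lay within 500 bp of a start of Smyd1, a muscle methyltransferase gene. The windows held 1.89 sites in both per 100 kb at Cd8a and 2.62 at Cd8b1, near the genome's 2.68, while the other 8 ranged from 6.63 at Cd3d to 19.2 at Lck.

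Away from promoters, the Cd8a window held 1 site in both libraries, in an intron of Rmnd5a (chr6:71423221-71423400, 0.885 and 0.590). The Cd8b1 window also held 1, at chr6:71298901-71299060, with 1.60 and 0.712. At the promoter of Krcc1 a site had 0.424 and 0.507. At the Rmnd5a promoter a site had 0.428 in replicate 1 and 0.720 in replicate 2, and its log2 ratio of -0.75 stood at the 1.26 percentile of sites in both. Between Cd8b1 and Cd8a, sites were called in replicate 1 only, at chr6:71341401-71341440 (0.349) and chr6:71348130-71348271 (0.431).

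Counted once each, 37 sites lay at the promoters of or inside the 10 genes. Of these, 22 (59.5%) were called in both libraries, 11 (29.7%) in replicate 1 only and 4 (10.8%) in replicate 2 only. Over all sites of the genome the shares were 49.9%, 36.5% and 13.6%. The sites of replicate 1 alone had a median signal of 0.484 and ran from 0.300 to 0.705, and those of replicate 2 alone had a median of 0.358 and ran from 0.306 to 0.435. Over the genome such sites had medians of 0.296 and 0.297. The sites in both ran from 0.420 to 14.9 in replicate 1 and from 0.322 to 5.70 in replicate 2, so the ranges overlapped at their low ends. All 4 sites of replicate 2 alone were in Cd3d and Cd3g, while Cd3e beside them had sites of replicate 1 alone.

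**Figure D3:**
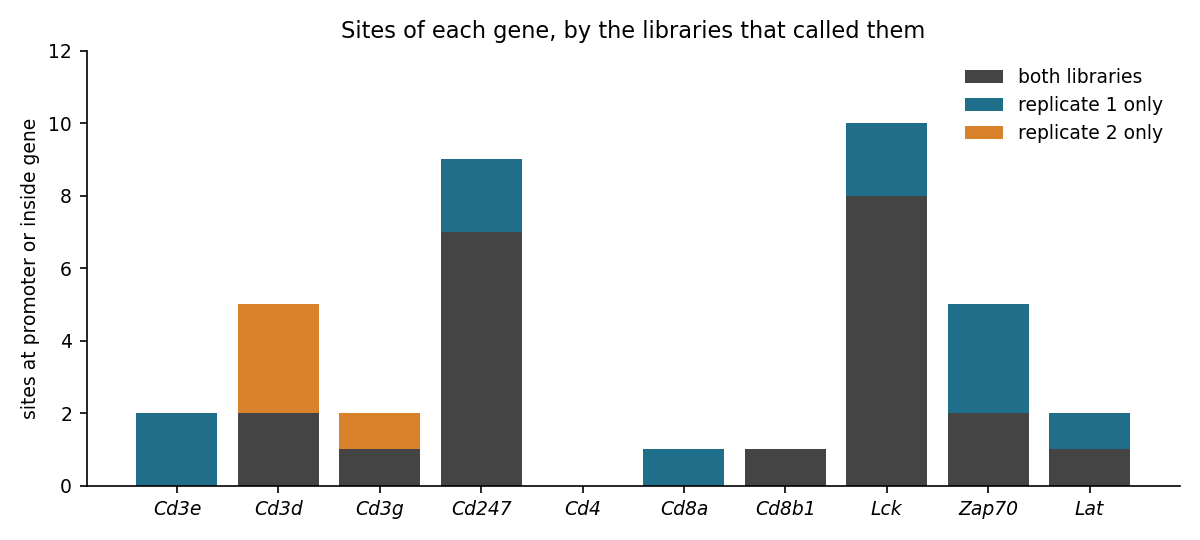
Number of sites at the promoter of or inside each gene, stacked by whether they were called in both libraries (dark), replicate 1 only (blue) or replicate 2 only (orange). Lck has 8 and Cd247 7 sites in both, Cd4 has none, and the 4 sites of replicate 2 alone are in Cd3d and Cd3g.

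In the 50 kb flanks, each site counted once, 108 sites were called, of which 68 were in both libraries, 27 in replicate 1 only and 13 in replicate 2 only. Of the 68, 34 lay at promoters of other protein-coding genes. Flank sites in both had median signals of 2.70 and 1.48, above the medians of 1.20 and 0.613 of the sites in both at the genes themselves. The medians of all sites in both of the genome were 1.21 and 0.712. Over the 7 separate loci that the joined windows form, there were 9.37 sites in both per 100 kb.

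Signals in replicate 1 were higher than in replicate 2 at most sites, at these genes as over the genome. The median log2 ratio of replicate 1 over replicate 2 was 0.83 at the 22 sites in both of the 10 genes and 0.84 (SD 0.58) over all 73150 sites in both. At these genes 13 of 22 ratios lay below the genome median. The extremes were the Cd247 intronic site (1.60) and the Zap70 first start (0.26), both less than 2 SD from the genome median.

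**Figure D4:**
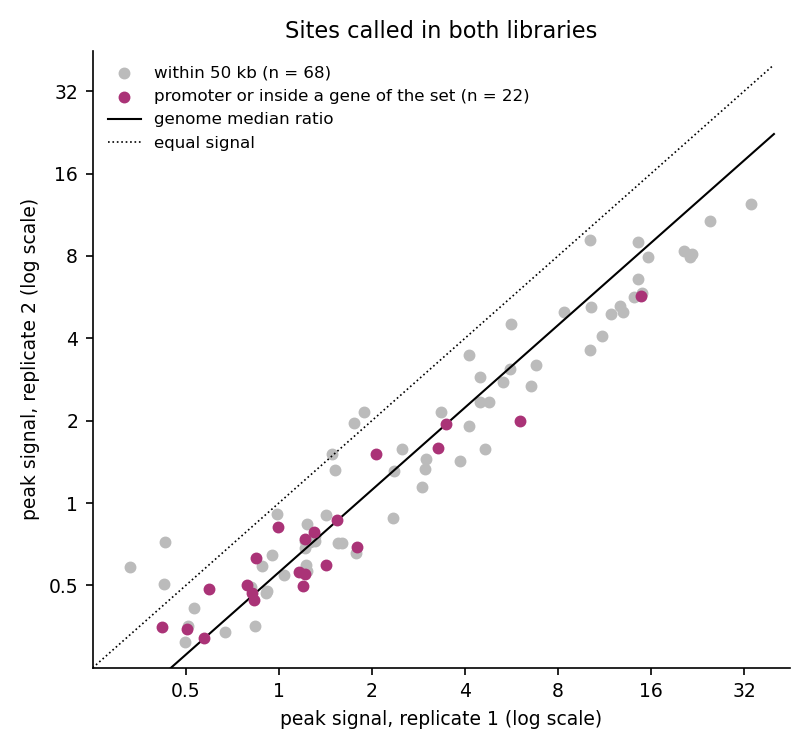
Peak signal in replicate 2 against replicate 1 (both axes logarithmic) for the 22 sites in both libraries at the 10 genes (purple) and the 68 in their flanks (grey), with the genome median ratio as a solid line and equal signal as a dotted one. Both sets follow the solid line, and the Lck internal site (14.9 and 5.70) is the highest purple point.

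Footprints were called in most sites. Of the 22 sites in both, 21 held a footprint of replicate 1, 20 one of replicate 2 and 20 one of each. The shares over all sites in both were 95.5%, 90.5% and 88.0%. A footprint of their own library lay in 7 of the 11 sites of replicate 1 only and in all 4 of replicate 2 only, where the genome had 70.9% and 63.9%. The sites of the 10 genes in both held 75 footprints in replicate 1, of which 40 overlapped one of replicate 2, and 66 in replicate 2, of which 47 overlapped one of replicate 1. The genome's shares were 55.3% and 72.3%.

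The printed sequences hold short motifs, searched on both strands and counted as letters, not as bound sites. In the Lck internal site the letters GGGCGG, bound by SP and KLF factors, begin at positions 93, 129, 154 and 160 from its first base, and all but that at 129 lie wholly in capitals. The site holds 18 CpG, against 3 in the 250 bases of the Lck proximal promoter. GGGCGG was in the central 150 bp of 7 of the 22 sites and of 20.8% of all sites in both.

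The Cd247 intronic site and the Cd4 upstream site each hold a match to a motif of CTCF, the factor that anchors chromatin loops. The letters searched were CCNNNAG followed directly by NNGGC, and this motif was added after the sequences had been seen. The match begins at position 73 in Cd247 and, on the other strand, at position 100 in Cd4, with all 12 bases in footprints of both libraries in each. The motif was in 4 of the 22 sites of the genes, in 26 of the 90 sites in both of their whole windows (28.9%) and in 21.9% of all sites in both. A shorter CTCF core, AGGNGGC, which can overlap it, was in 6 of 22 and 26.2%.

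Motifs of lymphocyte factors were found at varying shares. The letters TGNGGT, a loose form of the RUNX motif in which N is any base, were in 13 of the 22 sites and 30.2% of all sites in both. In the Cd247 intronic site they begin at position 136 and read TGTGGT. In the Lck internal site they read TGAGGT and in the Cd3e promoter TGGGGT. These forms were not counted apart, so the counts may hold letters that RUNX factors do not bind. GGAAG, the letters of ETS factors, were in 11 of 22 and 48.9%. The letters CTTTGA of TCF and LEF factors were in 2 of 22 and 7.50%. AGATAA, the letters that GATA3 and its relatives bind, were in 1 and 6.17%. The MYB letters CAACNG were in 6 and 21.1%, and the Ikaros letters TGGGAA in 2 and 12.7%. The E-box CAGCTG was in 2 and 12.3% and CAGGTG in 4 and 14.4%. In the RefSeq promoters CAGGTG was in 8 of the 11 entries of these genes and in 20.2% of 32851 entries, and the TATA box TATAAA was in 0 of 11 and 13.6%. The Ikaros letters were in 6 of 11 entries and 25.6%, and the loose RUNX letters TGNGGT in 8 and 45.8%. ETS letters were in 9 and 71.4%, TCF and LEF letters in 3 and 16%, and MYB letters in 2 and 35.0%. CAGCTG was in 2 and 16.3%. The letters of GATA3 and its relatives were in 1 and 11.2%, and those of SP and KLF in 2 and 35.7%. The CTCF core was in 3 and 29.4%, and the longer CTCF motif in 0 and 8.61%. The searches also held TGACG, bound by CRE factors, in 2 of 11 entries and 20.8%, and CCAAT, bound by NF-Y, in 1 and 37.4%. At the sites these were in 1 of 22 and 10.8%, and in 2 and 17.2%. These shares are descriptions.

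Other genes of the receptor's pathway and of other cells put the group in its tissue. Beside their counts, 60.7% of all protein-coding genes had a peak at any start in both libraries. In a list of 30 further T cell receptor pathway genes, a peak at any start was called in both libraries in 25, in replicate 1 only at Thy1 and Skap1, in replicate 2 only at Lcp2, and in neither at Ctla4, an inhibitory receptor, and Trat1, an adaptor. The highest were Bcl10 (27.0 and 8.96), Cblb (19.0 and 7.01), Csk (14.1 and 8.12), Plcg1 (12.4 and 4.61) and Fyn (8.31 and 3.33), which act in many cell types besides T cells. The list's median among genes with a peak was 1.14 and 0.938, against 0.705 and 0.486 in the 10 genes.

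Of 8 T lineage transcription factors 6 had a promoter peak in both, with Bcl11b and Tcf7 in replicate 1 only. Their medians among genes with a peak were 1.71 and 1.19 at any start, and 1.24 and 0.664 at coding starts. The highest were Zbtb7b (16.9 and 6.13) and Ets1 (15.7 and 6.97). Tox had 3.30 and 1.51 at any start but 0.686 and 0.385 at coding starts. Bcl11b, Tcf7, Lef1 and Gata3 ran from 0.829 to 1.40 in replicate 1. A peak in both stood at 8 of 8 B cell genes (medians 2.93 and 1.38, at coding starts 2.42 and 1.15). It stood at 6 of 6 red cell genes (8.93 and 3.65, at coding starts 7.07 and 3.08). It stood at 4 of 6 myeloid genes (0.698 and 0.494) and 2 of 6 NK cell genes (0.831 and 0.368). Such a peak was at 60.7% of all protein-coding genes, near the share of the myeloid list. Of 4 liver genes none had one in both, and Apob had one of 0.184 in replicate 1. The share of each cell type in the spleens was not measured, and its part in these values was not tested.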

How the data were processed

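DNase-seq of spleen was deposited as 2 libraries of 1 group. Per the labels and the deposited README, each library's peaks, footprints and FDR values came from its own filtered alignment on mm10 and were not pooled. The callers used, with their versions, were not stated in these sources. The longer peak list of each library was used (130476 peaks in replicate 1 and 95847 in replicate 2). Its signal, as deposited by the authors, is scaled per library, and the read depth is unknown. The deposited FDR values (p-value type) list stretches under 0.05. Footprints carry the constant 0.01 and were not ranked.

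Peaks overlapping by at least 1 bp were merged, and a site took the strongest signal of each library. Genes and starts came from GENCODE M21, and sequences from GRCm38.p6. All 10 genes are named, with their sites one by one and the 3 strongest flank sites away from promoters. Neighbouring genes are named where their promoters were among the strongest of a window or encode a lymphocyte receptor. In the Lat window 1 flank site and 1 neighbouring gene are not reported here. The genes, lists and motifs were chosen with earlier results of these data known. There is no contrast, so no test was run. Python 3.11.15, pandas 2.3.3 and pysam 0.24.0 were used. Merging and promoter assignment were tested on simulated data.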

Additional observations from a re-analysis of the deposited data

How the results depend on the processing

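Of 31 alternatives to the counts, 23 stayed within 1.5 times of the reported count and 8 did not. In the shorter deposited peak list, 4 genes in place of 7 had a promoter peak in both libraries, and 5 sites in place of 15 at the genes were called in 1 library only. With only peaks at or above the median signal of their library, 2 genes had a promoter peak in both, 14 sites in place of 22 at the genes were in both, 12 in place of 20 held a footprint in both, and 8 were in 1 library only. The genes with their flanks held 59 sites in both with flanks of 25 kb and 165 with 100 kb, in place of 90 with 50 kb, since fewer or more bases are covered. Starts of protein-coding transcripts, an alternative added after seeing the data, gave 6 genes. The promoter count was 7 in replicate 2 alone and 9 in replicate 1 alone. No paired analysis was possible because there is 1 group. The sites of the genes called in 1 library had low signals (0.300 to 0.705), and a missing call does not show closed chromatin.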
